A study of Homo sapiens with 24 samples.

Results

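The messenger RNA of H1975 cells kept for 24 h with almonertinib and paclitaxel together was compared with that of H1975 cells kept with paclitaxel alone. The members are the 6 libraries of the count table that the labels give to these groups, 3 of the combination and 3 of paclitaxel, of 24 libraries in the series. H1975 is an established human lung adenocarcinoma line that carries an activating mutation of the receptor gene EGFR together with a mutation that gives resistance to early EGFR inhibitors. The combination cells received both drugs, at doses that the labels do not state separately for the mixture. The paclitaxel cells received 1 nM paclitaxel. Almonertinib cells (1 nM) and untreated control cells of the same line, 3 libraries each, entered the fits, and PC9 cells, another EGFR-mutant lung adenocarcinoma line, were used for one comparison. All groups of H1975 share the line and the time, and the comparison asks what almonertinib adds once paclitaxel is present. Whether the replicate libraries stem from independent cultures is not in the labels, so a p-value here reflects how much these libraries differ from each other, and part of that may be technical.

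EGFR is a receptor tyrosine kinase of the cell surface that signals through RAS, RAF, MEK and ERK and through PI3K and AKT, and mutant forms of it drive growth in a share of lung adenocarcinomas. ERK signalling is read out by genes it induces, among them its own brakes DUSP6 and SPRY4 and the transcription factor gene ETV5. Almonertinib binds mutant EGFR covalently and blocks its kinase. Paclitaxel binds tubulin, stabilises microtubules and disturbs mitosis. EGFR inhibition in EGFR-dependent cells is known for loss of ERK target expression, arrest in G1 and induction of BCL2L11, which encodes the apoptosis activator BIM.

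The 6 libraries held between 14232299 and 20789509 counts and between 13811 and 13964 genes with at least 1 count. Of the defining markers, all 12 epithelial genes were at 5 CPM or more, where CPM is the depth-scaled count on TMM-adjusted library sizes. Their summed level was 12640 to 13009 CPM in the combination libraries and 10919 to 11820 CPM in the paclitaxel libraries. Of 15 lymphoid and myeloid markers, 7 (PTPRC, CD3E, CD2, MS4A1, NKG7, TYROBP and AIF1) had no count in any of the 6 libraries, and CD14 and CSF1R were the 2 with a mean of 5 CPM or more. Their summed level was 48.3 to 53.4 CPM in the combination libraries and 39.6 to 43.5 CPM in the paclitaxel libraries. Of 11 fibroblast markers, 7 had no count, and the sum was 11.7 to 14.2 CPM in the combination libraries and 7.10 to 11.5 CPM in the paclitaxel libraries. Of 8 endothelial markers, 2 had no count, and the sum was 7.95 to 8.36 CPM in the combination libraries and 3.15 to 4.68 CPM in the paclitaxel libraries, with CDH5 and ESAM the 2 members at a mean of 1 CPM or more. The part of these low sums in the results was not tested.

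Paclitaxel library 1 stood apart from the other 2 paclitaxel libraries before any gene was tested. For each library, the deviation of each gene's log2 CPM from its mean over the 12 H1975 libraries was correlated with the length of its longest annotated transcript. This Spearman correlation across genes was 0.178, 0.163 and 0.322 in combination libraries 1, 2 and 3. It was 0.318, -0.438 and -0.443 in paclitaxel libraries 1, 2 and 3. Long transcripts were thus relatively high in all 3 combination libraries and in paclitaxel library 1, and relatively low in paclitaxel libraries 2 and 3. The other H1975 groups were split too. Control libraries 1, 2 and 3 had -0.231, -0.228 and 0.325. Almonertinib libraries 1, 2 and 3 had -0.298, 0.378 and 0.0989. Such a split within a group was thus not particular to paclitaxel, and the lowest values of the 12 libraries were those of paclitaxel libraries 2 and 3. The group means were 0.221 ± 0.0877 in the combination and -0.188 ± 0.438 in paclitaxel (SD, n = 3 each), and the exact two-sided permutation test gave p = 0.3, where 3 against 3 libraries cannot go below 0.1. Genes are not independent replicates, so each correlation is a description of one library.

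Paclitaxel library 1 also had the highest share of counts in mitochondrially encoded genes, 2.50% with a 95% Clopper-Pearson interval of 2.49% to 2.51% that covers counting error only. The combination libraries had 1.22%, 1.07% and 1.19%, and paclitaxel libraries 2 and 3 had 1.04% and 0.977%. Its share of replication-dependent histone genes was 0.05001%, against 0.0316% and 0.0298% in paclitaxel libraries 2 and 3 and 0.0241% to 0.0298% in the combination libraries. The correlation of the deviations with GC content was 0.165, 0.159 and -0.177 in the combination libraries and -0.477, 0.0439 and 0.160 in the paclitaxel libraries. Across genes, the deviations of paclitaxel library 1 from the mean over the 12 H1975 libraries went against those of libraries 2 and 3 (Pearson r = -0.207 and -0.304), and results below are therefore given with and without it.

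**Figure D1:**
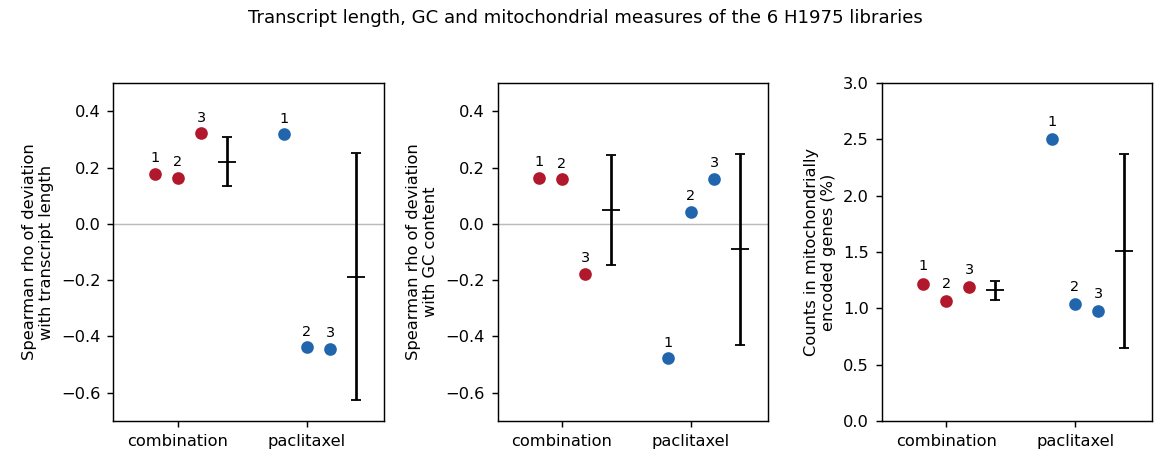
Measures of the 6 H1975 libraries, with each point 1 library numbered by replicate and the black mark the group mean with its SD: the Spearman correlation of a library's deviations with transcript length, the same with GC content, and the percent of counts in mitochondrially encoded genes. Paclitaxel library 1 lies with the combination libraries in the length correlation (0.318) and above all others in mitochondrial counts (2.50%).

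The difference between the groups itself followed transcript length. Over 12333 genes with a length, the Spearman correlation of the log2 fold change (combination over paclitaxel) with length was 0.313 with all libraries and 0.411 without paclitaxel library 1. Genes were cut by length into 5 equal groups. In the group with the shortest transcripts (207 to 2153 bases) the median log2 fold change was -0.18 with all libraries and -0.25 without paclitaxel library 1. In the group with the longest transcripts (5892 to 43816 bases) it was 0.13 with all libraries and 0.24 without that library. Leaving out paclitaxel library 1 therefore made the length trend steeper. A spline on length and GC content removed from each library brought the correlation to 0.0295, and removing both the trend and the library gave 0.0311. Whether the trend came from the cells or from the preparation of the libraries was not tested.

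**Figure D2:**
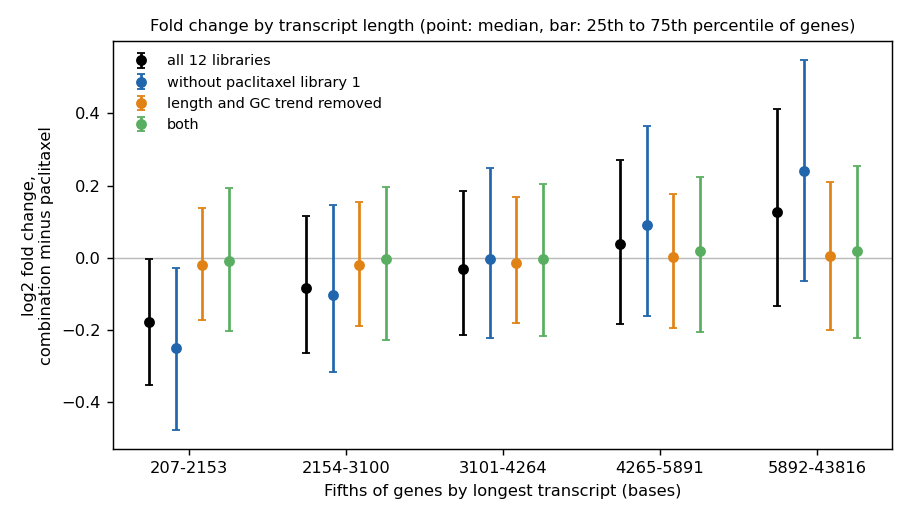
Log2 fold change, combination minus paclitaxel, in 5 groups of genes ordered by their longest transcript in bases; points are medians over genes and bars run to the 25th and 75th percentiles, for the fit of all 12 libraries, without paclitaxel library 1, with the length and GC trend removed, and both. The medians climb with length, to 0.13 in the longest group with all libraries and 0.24 without paclitaxel library 1, and lie near 0 once the trend is removed.

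With all 12 H1975 libraries in edgeR's quasi-likelihood test, no gene of 12345 passed an adjusted p of 0.05 (0% called), and 1704 genes (13.8%) had an unadjusted p under 0.05, of which 1197 were higher (9.7%) and 507 lower (4.11%). The smallest adjusted p was 0.0506 and was shared by 9 genes, so the count of 0 lies close to the threshold. DESeq2 on the same libraries called 478 genes (3.87%), 447 higher (3.62%) and 31 lower (0.251%), and limma-voom with sample quality weights called 5643 (45.7%), 2816 higher (22.8%) and 2827 lower (22.9%). Without paclitaxel library 1, edgeR called 424 of 12430 genes (3.41%), 328 higher (2.64%) and 96 lower (0.772%). With the length and GC trend removed and all libraries kept, it called 194 genes (1.57%), 152 higher (1.23%) and 42 lower (0.34%). With both changes it called 1138 genes (9.16%), 558 higher (4.49%) and 580 lower (4.67%). With only the 6 libraries it called 822 genes (6.8%), 605 higher (5.01%) and 217 lower (1.8%), and with all 24 libraries of both lines 775 genes (5.79%), 679 higher (5.07%) and 96 lower (0.717%). Without almonertinib library 1, which is no member of the comparison, it called 600 genes (4.82%), 474 higher (3.81%) and 126 lower (1.01%), and without that library and paclitaxel library 1 2359 genes (19%), 1337 higher (10.8%) and 1022 lower (8.24%). Higher and lower calls were near each other in number with both changes and in limma-voom, and higher calls were the more frequent in the other fits. The libraries of the groups did not overlap for 3800 genes (30.8%), of which 2081 were higher (16.9%) and 1719 lower (13.9%).

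A set of 86 genes was called the same way without paclitaxel library 1, with the trend removed, and with both changes (0.697% of all genes tested). Of these, 77 were higher (0.624%) and 9 lower (0.0729%). They are 20.3% of the 424 genes called without paclitaxel library 1 and 44.3% of the 194 called with the trend removed. All 194 were also called with both changes. The fit with both changes thus left no gene out, and the 86 are the genes shared by the other 2 fits. In what follows, rose and fell are used of these genes, and the fit is named for any other call. With all libraries their edgeR adjusted p ran from 0.0506 to 0.119 for the higher genes and from 0.0625 to 0.179 for the lower genes. Their log2 fold changes in that fit were 0.55 to 1.47 with a median of 0.89 in the higher genes, and -1.01 to -0.57 in the lower genes. The longest transcripts of the 77 higher genes had a median of 6190 bases and those of the 9 lower genes of 2363 bases, against 3658 bases over all genes tested. Of the 77, 40 were in the longest of the 5 length groups and 0 in the shortest. The part of transcript length in these calls was tested only as far as the fits with the trend removed go. In bulk RNA, fewer cells of a type and less RNA per cell cannot be told apart. The ± after a log2 fold change gives its standard error, taken roughly as the change over the root of the F statistic, and each such value comes from the edgeR fit of all 12 libraries unless another fit is named.

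**Figure D3:**
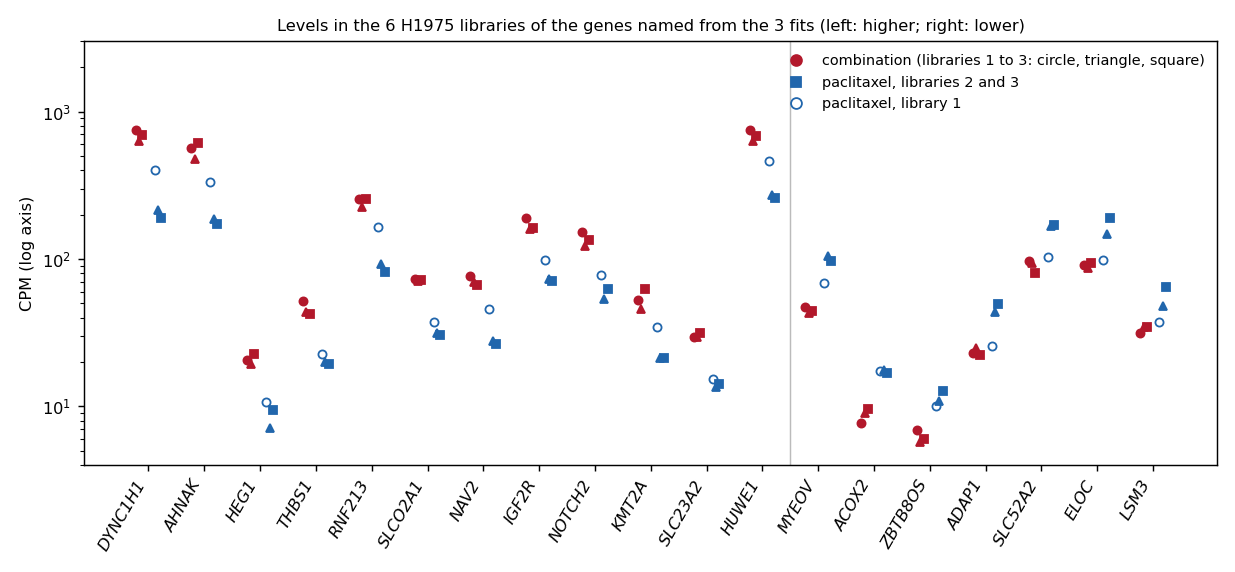
CPM on a log axis of the 12 genes that rose most and the 7 that fell most among protein-coding genes called in the 3 fits, with a mean of at least 5 CPM and no overlap between the groups, in 3 combination libraries (red) and 3 paclitaxel libraries (blue, with library 1 as an open circle). In AHNAK, NAV2, ADAP1 and SLC52A2 the open circle lies between the other paclitaxel libraries and the combination.

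The sterol carrier gene NPC1 (ENSG00000141458, chr18:23506184-23586898 on the minus strand of GRCh38) was, with THBS1, at the smallest adjusted p among list members. It encodes the lysosomal membrane protein that moves cholesterol out of lysosomes. NPC1 had 142, 132 and 124 CPM in the combination libraries and 73.7, 57.4 and 59.3 CPM in the paclitaxel libraries. The lowest combination library was above the highest paclitaxel library, and the log2 fold change was 1.07 ± 0.16 with all libraries (edgeR adjusted p = 0.0506). It was 1.19 ± 0.17 without paclitaxel library 1 (edgeR adjusted p = 0.0204) and 0.81 ± 0.10 with the trend removed (edgeR adjusted p = 0.00811).

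SCD, which encodes the desaturase that makes monounsaturated fatty acids, had 507, 455 and 459 CPM in the combination libraries and 299.9, 198 and 222 CPM in the paclitaxel libraries. All 3 combination libraries were higher, and SCD rose by a log2 fold change of 0.98 ± 0.20 with all libraries, 1.17 without paclitaxel library 1 and 0.75 with the trend removed. SQLE, the squalene epoxidase of cholesterol synthesis, rose as well, with 49.6, 49.9 and 45.1 CPM in the combination libraries and 29.7, 24.5 and 27.0 CPM in the paclitaxel libraries. These 2 were the members called in the 3 fits among 34 genes of cholesterol and fatty acid synthesis that were tested (0.697% of all genes). Of the 34, 28 had a positive log2 fold change, against 5567 of 12345 among all genes tested, and the list's median was 0.26 with all libraries and 0.22 with the trend removed, against -0.04 and -0.01 over all genes. With both changes, 6 of the 34 were called higher and 0 lower (4.49% and 4.67% of all genes).

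The promoters of 62 of the 77 higher genes and 5 of the 9 lower genes were found in RefSeq's table (GRCh38.p14), and 4 are shown as examples. They are the 250 bases before the start of NPC1 (chr18:23586507-23586756, minus strand), SCD (chr10:100346983-100347232, plus strand), THBS1 (chr15:39580829-39581078, plus strand) and ZBTB8OS (chr1:32650933-32651182, minus strand), written 5′ to 3′ with matches to the searched motifs in capitals.
NPC1: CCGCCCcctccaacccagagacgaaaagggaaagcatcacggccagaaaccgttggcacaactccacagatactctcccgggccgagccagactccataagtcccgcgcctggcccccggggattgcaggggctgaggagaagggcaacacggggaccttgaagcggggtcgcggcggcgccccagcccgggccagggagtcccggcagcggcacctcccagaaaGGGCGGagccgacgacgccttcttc
SCD: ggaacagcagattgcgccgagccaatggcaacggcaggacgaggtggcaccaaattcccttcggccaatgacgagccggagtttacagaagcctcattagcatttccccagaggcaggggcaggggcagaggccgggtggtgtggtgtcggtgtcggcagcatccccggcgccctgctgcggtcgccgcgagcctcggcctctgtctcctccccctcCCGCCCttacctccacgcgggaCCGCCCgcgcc
THBS1: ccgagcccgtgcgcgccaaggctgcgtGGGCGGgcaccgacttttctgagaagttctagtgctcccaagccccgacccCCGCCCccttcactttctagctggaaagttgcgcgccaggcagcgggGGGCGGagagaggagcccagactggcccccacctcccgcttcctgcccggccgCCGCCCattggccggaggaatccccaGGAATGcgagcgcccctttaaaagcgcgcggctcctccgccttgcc
ZBTB8OS: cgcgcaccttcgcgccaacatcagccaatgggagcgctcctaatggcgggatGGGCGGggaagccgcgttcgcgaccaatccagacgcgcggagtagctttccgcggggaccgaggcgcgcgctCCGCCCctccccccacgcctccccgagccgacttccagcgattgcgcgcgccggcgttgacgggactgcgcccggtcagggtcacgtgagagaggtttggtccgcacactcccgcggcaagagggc
The motifs searched on both strands were the GC box GGGCGG, the TEAD site GGAATG, the AP-1 site TGANTCA, the E-box CACCTG and the sterol response element core TCACNCCAC. All capitals in NPC1, SCD and ZBTB8OS are GC boxes, and THBS1 holds 4 GC boxes and 1 TEAD site, which do not overlap. Of the promoters of the higher genes, 71% held a GC box, 9.68% a TEAD site, 3.23% an AP-1 site, 12.9% an E-box and 1.61% the sterol element core. Among 10009 promoters of genes tested these shares were 68.5%, 9.47%, 3.79%, 15.9% and 0.819%. The shares of the higher genes lay near those of all genes tested, and a match is a description of letters only.

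Genes of the extracellular matrix and of the mesenchymal state formed the list with the most members that rose. Of 30 mesenchymal and TGF-beta genes tested, THBS1, TNC, TGFBI and SPARC rose and none fell (0.624% and 0.0729% of all genes). Of the 30, 28 had a positive log2 fold change. The list's median was 0.42 with all libraries, 0.51 without paclitaxel library 1 and 0.39 with the trend removed. With both changes, 11 of the 30 were called higher and 0 lower (4.49% and 4.67% of all genes). THBS1 (ENSG00000137801), which encodes the matrix protein thrombospondin 1, had 52.1, 43.5 and 42.1 CPM in the combination libraries and 22.5, 19.9 and 19.4 CPM in the paclitaxel libraries. Its log2 fold change was 1.16 ± 0.20 with all libraries, 1.22 ± 0.23 without paclitaxel library 1 and 0.89 ± 0.14 with the trend removed (edgeR adjusted p = 0.0506, 0.0216 and 0.0176). THBS1 was also among the genes chosen for no overlap between the groups, so the gap between its libraries is a description.

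TGFBI, a secreted matrix protein induced by TGF-beta, had 2457, 2502 and 2405 CPM in the combination libraries and 1486, 1385 and 1419.7 CPM in the paclitaxel libraries. TNC, the matrix glycoprotein tenascin C, had 439, 403 and 401 CPM in the combination libraries and 257, 208 and 192 CPM in the paclitaxel libraries. SPARC, a collagen-binding matrix protein, had 115, 117 and 116 CPM in the combination libraries and 84.0, 75.9 and 77.2 CPM in the paclitaxel libraries. For these 3 genes paclitaxel library 1 lay closest to the combination, and it did not reach it. The summed level of the list's members was 4885 to 4982 CPM in the combination libraries and 3025 to 3239 CPM in the paclitaxel libraries. Of the fibroblast markers, COL1A2, DCN, LUM, PDGFRA, THY1, FAP and POSTN had no count in any of the 6 libraries. The 3 fibroblast markers tested all had positive log2 fold changes, with a median of 0.57. Of these, 2 were higher without overlap between the groups (16.9% of all genes). COL1A1 had 9.44, 11.4 and 10.4 CPM in the combination libraries and 9.52, 6.89 and 5.59 CPM in the paclitaxel libraries.

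Among 23 targets of YAP and TEAD, which read out the Hippo pathway, none was called in all 3 fits (0.697% of all genes). Of the 23, 19 had a positive log2 fold change and 12 had an unadjusted p under 0.05, all higher, against 9.7% of all genes. The list's median was 0.39 with all libraries, 0.46 without paclitaxel library 1 and 0.22 with the trend removed. With the trend removed 3 were called higher and 0 lower (1.23% and 0.34% of all genes). With both changes 6 were called higher and 0 lower (4.49% and 4.67%). CCN1, a secreted matricellular protein and a direct YAP target, had 169, 146 and 138 CPM in the combination libraries and 70.5, 96.6 and 109.5 CPM in the paclitaxel libraries. The groups did not overlap, and the log2 fold change was 0.71 ± 0.17 (edgeR adjusted p = 0.0858), with an adjusted p of 0.0672 without paclitaxel library 1 and 0.0331 with the trend removed. Here paclitaxel library 1 was the lowest of its group, and the log2 fold change without it was 0.55.

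CDH1 (ENSG00000039068), which encodes E-cadherin of the junctions between epithelial cells, rose, with 248, 226 and 235 CPM in the combination libraries and 147, 107 and 108 CPM in the paclitaxel libraries. Its log2 fold change was 0.97 ± 0.18 with all libraries (edgeR adjusted p = 0.0625), 1.14 without paclitaxel library 1 and 0.74 with the trend removed. Of the 12 epithelial markers, CDH1 was the member called in the 3 fits (0.697% of all genes). Of the 12, 10 had a positive log2 fold change, and the median of the 12 was 0.13. MUC1, a membrane mucin, had 11.4, 13.6 and 16.1 CPM in the combination libraries and 8.88, 6.26 and 7.80 CPM in the paclitaxel libraries, and was called without paclitaxel library 1 (edgeR adjusted p = 0.0454) but not with the trend removed (edgeR adjusted p = 0.0699). Other genes that rose, chosen after their values were seen, were VCL (vinculin, log2 fold change 0.95), CTNNA1 (alpha-catenin, 0.65), and the laminin chains LAMC1 (0.79) and LAMB2 (0.80). Genes of cell contacts were not counted as a list. For the junction markers CLDN4 and CLDN7 the groups overlapped. CLDN4 had 1162, 1143 and 1058 CPM in the combination libraries and 820, 1147 and 1224 CPM in the paclitaxel libraries. CLDN7 had 296.5, 277 and 271 CPM in the combination libraries and 236, 339 and 351 CPM in the paclitaxel libraries.

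Receptors and transporters of the cell surface and of vesicles were in the set of the 12 largest rises among protein-coding genes with a mean of at least 5 CPM and no overlap between the groups. NOTCH2, a receptor for ligands on neighbouring cells, had 152, 122 and 134 CPM in the combination libraries and 77.6, 53.5 and 62.4 CPM in the paclitaxel libraries, a log2 fold change of 1.08 ± 0.20. NOTCH1 (0.84) and the Notch ligand gene JAG1 (0.96) rose too, and both were chosen after their values were seen. IGF2R, the receptor that carries lysosomal enzymes and clears IGF2, had 191, 161 and 163 CPM in the combination libraries and 99.2, 72.8 and 70.5 CPM in the paclitaxel libraries. NOTCH2 and IGF2R were chosen for no overlap between the groups, so the gap between their libraries is a description.

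SLCO2A1, a prostaglandin transporter, had 73.4, 71.2 and 72.1 CPM in the combination libraries and 37.6, 31.4 and 30.7 CPM in the paclitaxel libraries, a log2 fold change of 1.12 ± 0.17. SLC23A2, a vitamin C transporter, had 29.6, 29.6 and 31.3 CPM in the combination libraries and 15.3, 13.6 and 14.2 CPM in the paclitaxel libraries. Both were among the 9 genes at the smallest adjusted p with all libraries (0.0506). HEG1, a membrane protein of cell junctions, had 20.6, 19.3 and 22.7 CPM in the combination libraries and 10.7, 7.15 and 9.52 CPM in the paclitaxel libraries.

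The largest rise among the genes named was that of DYNC1H1 (ENSG00000197102, chr14:101964510-102056443 on the plus strand), the heavy chain of the dynein motor that walks along microtubules. DYNC1H1 had 756, 637 and 693 CPM in the combination libraries and 401, 216 and 190.2 CPM in the paclitaxel libraries. Paclitaxel library 1 was the highest of its group, and the lack of overlap with the combination was required by the naming rule. The log2 fold change was 1.37 ± 0.30 with all libraries, 1.78 ± 0.28 without paclitaxel library 1 and 0.91 ± 0.19 with the trend removed (edgeR adjusted p = 0.0657, 0.0204 and 0.0334), so its size depended on the fit. Its longest transcript has 20003 bases.

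Other genes with long transcripts showed the same arrangement. AHNAK, a giant scaffold protein, had 566, 475 and 618 CPM in the combination libraries and 335, 186 and 174 CPM in the paclitaxel libraries. HUWE1, a large ubiquitin ligase, had 750.2, 636 and 689 CPM in the combination libraries and 461, 271 and 258 CPM in the paclitaxel libraries. For RNF213, KMT2A and NAV2, too, paclitaxel library 1 was the highest of its group, with 164, 34.6 and 45.6 CPM. RNF213 encodes another large ubiquitin ligase and KMT2A a histone methyltransferase of promoters. In these 5 genes the log2 fold change with the trend removed was 0.77 (AHNAK), 0.62 (HUWE1), 0.64 (RNF213), 0.63 (KMT2A) and 0.71 (NAV2), against 1.26, 1.07, 1.12, 1.07 and 1.09 with all libraries. The acetyltransferase genes CREBBP and EP300, chosen after their values were seen, rose with log2 fold changes of 0.89 and 0.95.

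The genes that fell were few and of shorter transcripts. MYEOV (ENSG00000172927, chr11:69294138-69367726 on the plus strand), a gene near CCND1 that is overexpressed in myeloma, fell by 1.01 ± 0.20 on the log2 scale with all libraries. It had 47.3, 42.7 and 44.5 CPM in the combination libraries and 68.5, 106 and 96.9 CPM in the paclitaxel libraries. It fell by 1.18 without paclitaxel library 1 and by 0.98 with the trend removed (edgeR adjusted p = 0.0204 and 0.0138). Against the untreated control the log2 fold change of MYEOV was -2.08 in the combination, -2.04 in almonertinib and -1.07 in paclitaxel, and these 3 values share the control libraries.

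ACOX2, a peroxisomal oxidase of bile acid and branched fatty acid breakdown, had 7.67, 9.06 and 9.57 CPM in the combination libraries and 17.4, 17.8 and 16.9 CPM in the paclitaxel libraries. It fell by 0.99 ± 0.19 with all libraries and by 0.98 without paclitaxel library 1, and in this gene the 3 paclitaxel libraries lay together. ZBTB8OS, a factor of tRNA ligation, had 6.86, 5.70 and 6.04 CPM in the combination libraries and 10.04, 10.8 and 12.6 CPM in the paclitaxel libraries. In ADAP1, SLC52A2, ELOC and LSM3 the paclitaxel library nearest to the combination was library 1. ELOC, the elongin C subunit of ubiquitin ligases, had 90.7, 86.8 and 93.3 CPM in the combination libraries and 97.7, 147 and 190.2 CPM in the paclitaxel libraries. SLC52A2, a riboflavin transporter, had 97.0, 94.5 and 80.5 CPM in the combination libraries and 103, 168 and 171 CPM in the paclitaxel libraries, so its fall rested on paclitaxel libraries 2 and 3.

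Of 37 ERK feedback genes and EGFR-MAPK targets tested, none was called without paclitaxel library 1 (3.41% of all genes), 2 were called lower with the trend removed (0.34%), and 3 higher (4.49%) and 4 lower (4.67%) with both changes. The list's median was -0.01 with all libraries, 0.06 without paclitaxel library 1 and -0.15 with the trend removed, so its sign depended on the fit. DUSP6, an ERK phosphatase, had 2.38, 2.73 and 3.09 CPM in the combination libraries and 3.99, 2.52 and 2.47 CPM in the paclitaxel libraries, and the groups overlapped. SPRY4 had 9.02, 6.40 and 6.87 CPM in the combination libraries and 10.3, 5.84 and 6.80 CPM in the paclitaxel libraries. ETV5 had 33.7, 25.8 and 26.6 CPM in the combination libraries and 33.3, 22.1 and 20.6 CPM in the paclitaxel libraries. Their log2 fold changes of -0.12 ± 0.26, -0.03 ± 0.24 and 0.18 ± 0.20 were within their standard errors.

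PHLDA1, another ERK-induced gene, had 109, 108 and 109.6 CPM in the combination libraries and 147, 125 and 119 CPM in the paclitaxel libraries, a log2 fold change of -0.26 ± 0.14 (edgeR adjusted p = 0.419) with no overlap. EGFR itself had 127, 118 and 139 CPM in the combination libraries and 84.3, 70.7 and 69.8 CPM in the paclitaxel libraries. The groups did not overlap, and the log2 fold change of EGFR was 0.77 ± 0.20 with all libraries (edgeR adjusted p = 0.104), 0.87 without paclitaxel library 1 (0.0532) and 0.39 with the trend removed (0.0928). EGFR was called by DESeq2 (DESeq2 adjusted p = 0.00986) and by edgeR with the 6 libraries (edgeR adjusted p = 0.0109) or all 24 libraries (0.00844). Against the untreated control the log2 fold change of EGFR was -0.66 in paclitaxel, -0.40 in almonertinib and 0.11 in the combination. These values share the control libraries. ERBB3, its partner that couples to PI3K, had 97.3, 99.0 and 98.5 CPM in the combination libraries and 75.6, 59.95 and 65.3 CPM in the paclitaxel libraries, a log2 fold change of 0.55 ± 0.16 (edgeR adjusted p = 0.12). Of 15 other receptor tyrosine kinases, INSR, the insulin receptor gene, rose (0.624% of all genes rose). It had 24.99, 23.5 and 22.1 CPM in the combination libraries and 12.999, 10.99 and 11.8 CPM in the paclitaxel libraries. Of 23 FOXO targets and PI3K brakes, 18 had a positive log2 fold change and the list's median was 0.28. FBXO32, a FOXO-induced ubiquitin ligase subunit, had 198, 198 and 202 CPM in the combination libraries and 147, 137 and 131 CPM in the paclitaxel libraries, and was called without paclitaxel library 1 (edgeR adjusted p = 0.0454) but not with the trend removed (0.235).

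MYC had 442, 417 and 399 CPM in the combination libraries and 409, 413 and 377 CPM in the paclitaxel libraries. CCND1, the cyclin of G1 entry, had 150.5, 132 and 134 CPM in the combination libraries and 131, 138 and 128 CPM in the paclitaxel libraries. For both genes the groups overlapped, and the log2 fold change was 0.07 ± 0.16 for MYC and 0.07 ± 0.14 for CCND1, where the sign for CCND1 turned with the trend removed. Of 49 genes that act in G1-S and in replication of DNA, 1 was called higher and 1 lower with the trend removed (1.23% and 0.34% of all genes). None was called without paclitaxel library 1 (3.41%), and the median was 0.0045 with all libraries. Of 56 genes of G2-M and mitosis none was called in these 2 fits (1.57% and 3.41% of all genes). With all libraries, 16 of the 56 had a positive log2 fold change and the median was -0.15. The median shrank to -0.08 with the trend removed and to -0.02 with both changes, where 26 were positive. Between the groups, 4 of the 56 were higher and 18 lower without overlap, against 16.9% and 13.9% of all genes. Their summed level was 8148 to 8450 CPM in the combination libraries and 8805 to 10462 CPM in the paclitaxel libraries. Of 36 genes of DNA repair and checkpoints, 9 had a positive log2 fold change. Without overlap, 2 of the 36 were higher and 10 lower (16.9% and 13.9% of all genes). Their median was -0.32 with all libraries, -0.18 with the trend removed and -0.16 with both changes.

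Tubulins form the microtubules that paclitaxel binds. Of 14 tubulin genes tested, none was called without paclitaxel library 1 or with the trend removed (3.41% and 1.57% of all genes), and with so few genes nothing is read from that count. TUBB had 1875, 1672 and 1654 CPM in the combination libraries and 1994, 1797 and 1809 CPM in the paclitaxel libraries, and TUBB4B had 2250.2, 2149.5 and 2011 CPM in the combination libraries and 2393, 2791 and 2747 CPM in the paclitaxel libraries. Tubulin genes are near-identical copies of each other, and reads may have been split between them. Of the 7 genes of taxane transport and metabolism tested, the export pump gene ABCC1 had 48.9, 42.7 and 38.6 CPM in the combination libraries and 30.4, 25.3 and 27.1 CPM in the paclitaxel libraries, and was called without paclitaxel library 1 (edgeR adjusted p = 0.0475) but not with the trend removed (0.0648). BCL2L11 had 23.4, 22.0 and 23.6 CPM in the combination libraries and 21.6, 15.7 and 15.2 CPM in the paclitaxel libraries. It was higher without overlap, as were 16.9% of all genes, and paclitaxel library 1 lay closest to the combination. Its log2 fold change was 0.40 ± 0.17 with all 12 libraries (edgeR adjusted p = 0.298), a fit in which no gene was called. Of 21 BCL2 family genes none was called in the fits without paclitaxel library 1 or with the trend removed (3.41% and 1.57% of all genes). CDKN1A, the p53-induced cell cycle inhibitor, had 102, 99.5 and 104 CPM in the combination libraries and 112, 121 and 120.4 CPM in the paclitaxel libraries, a log2 fold change of -0.21 ± 0.21.

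Other lists held single members that rose, where 0.624% of all genes tested rose. CSF1, the macrophage growth factor gene among 32 NF-kB targets and cytokines, had 49.4, 49.1 and 44.7 CPM in the combination libraries and 26.8, 30.2 and 31.3 CPM in the paclitaxel libraries, and here paclitaxel library 1 was the farthest from the combination. HK2, the hexokinase of the first step of glycolysis, had 95.8, 105 and 126 CPM in the combination libraries and 74.4, 47.0 and 48.4 CPM in the paclitaxel libraries. HK2 was the member called in the 3 fits among 32 glycolysis and hypoxia genes, whose median was 0.11. Of 34 lysosome and autophagy genes, 29 had a positive log2 fold change with a median of 0.21, and NPC1 was the one that rose. Of 24 ER chaperone and unfolded protein response genes, 16 were higher without overlap between the groups and none lower (16.9% and 13.9% over all genes), and the median was 0.30 with all libraries and 0.27 with the trend removed. Of 31 ATF4 and amino acid stress genes 1 was called higher with the trend removed (1.23% of all genes). STC2, a secreted glycoprotein of that list, had 58.1, 62.8 and 63.1 CPM in the combination libraries and 36.2, 41.5 and 43.5 CPM in the paclitaxel libraries (edgeR adjusted p = 0.0755 with all libraries). Of 27 antigen presentation genes 4 were called higher and 0 lower with the trend removed (1.23% and 0.34% of all genes), among them TAPBP, the tapasin of peptide loading, with 301, 283 and 265 CPM in the combination libraries and 196, 185 and 205 CPM in the paclitaxel libraries.

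Most genes of the ribosomal protein and respiratory chain lists had negative log2 fold changes, and their count of calls changed between the fits. Of 75 cytosolic ribosomal protein genes (median longest transcript 1857 bases), 4 had a positive log2 fold change. Without paclitaxel library 1, 11 of the 75 were called lower and 0 higher (0.772% of all genes were called lower), and with the trend removed none was called (0.34%). Of 70 nuclear-encoded genes of the respiratory chain (median 1432.5 bases), 3 had a positive log2 fold change, and 12 were called lower without paclitaxel library 1 and none with the trend removed. With both changes, 23 of the 75 and 13 of the 70 were called lower (4.67% of all genes), with medians of -0.36 and -0.28. The medians of the ribosomal protein list were -0.23, -0.45 and -0.17 with all libraries, without paclitaxel library 1 and with the trend removed, and those of the respiratory chain list were -0.35, -0.49 and -0.18. RPS15A had 36.5, 33.3 and 35.1 CPM in the combination libraries and 36.0, 59.4 and 86.9 CPM in the paclitaxel libraries, so paclitaxel library 1 fell among the combination libraries. Ribosomal protein genes have many processed copies in the genome, and reads may have been shared with them.

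The 13 mitochondrially encoded protein genes had a median of -0.39 with all libraries and 0.22 without paclitaxel library 1, a turn of sign. MT-ND3, a subunit of complex I, did not follow that turn, with 1011, 746 and 858 CPM in the combination libraries and 1478, 1439.8 and 1561 CPM in the paclitaxel libraries. It was called lower without paclitaxel library 1 (edgeR adjusted p = 0.0388) and not with the trend removed (0.856). The 39 replication-dependent histone genes had a median of -0.70 with all libraries and -0.14 without paclitaxel library 1, and none was called in the 3 fits. Histone messages lack a poly(A) tail and their counts also depend on the library kit.

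**Figure D4:**
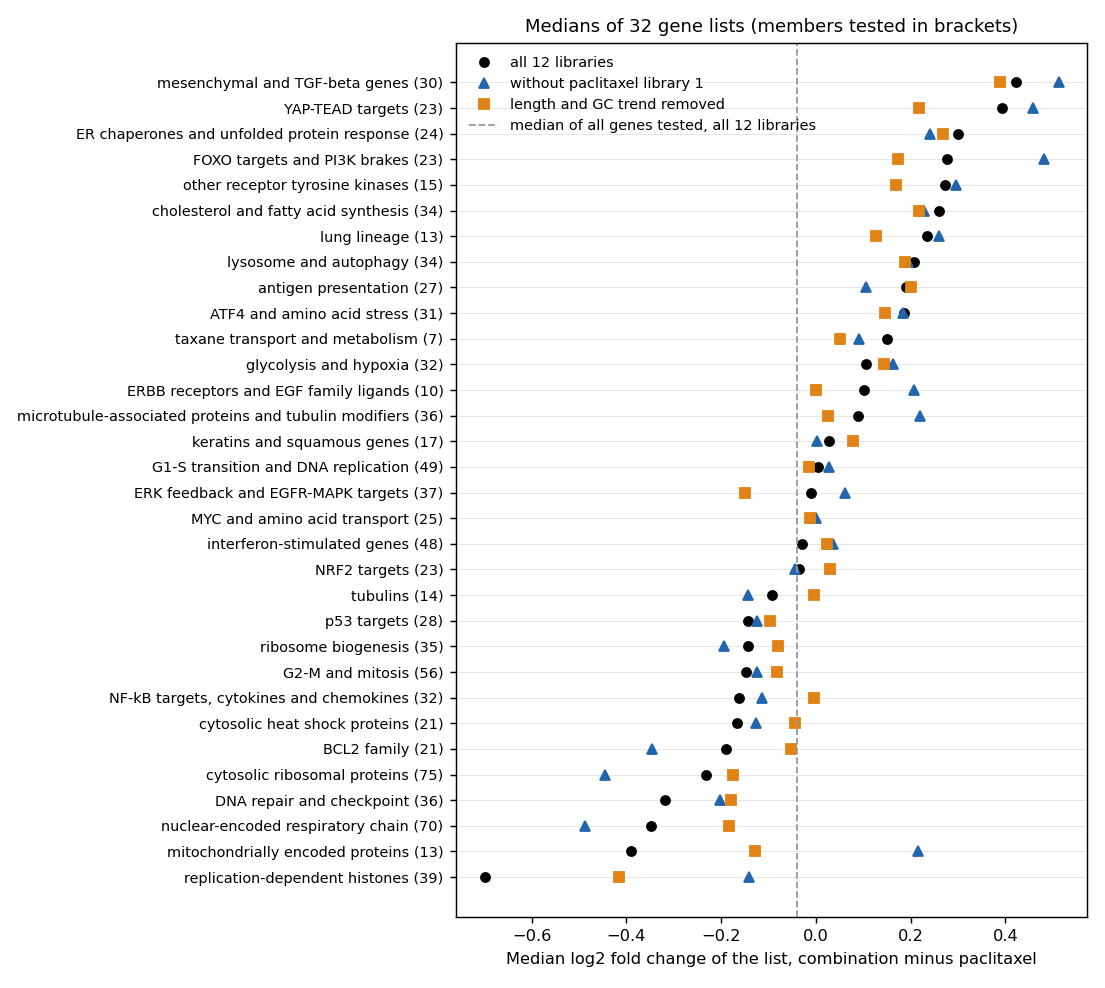
Median log2 fold change, combination minus paclitaxel, of 32 gene lists with the number of members tested in brackets, in the fit of all 12 libraries (circles), without paclitaxel library 1 (triangles) and with the length and GC trend removed (squares); the dashed line is the median of all genes tested (-0.04). Mesenchymal and TGF-beta genes lie at 0.39 to 0.51 in the 3 fits, while the mitochondrially encoded genes change sign.

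What almonertinib did on top of paclitaxel was then set against what it did alone. The contrast of the combination minus paclitaxel with almonertinib minus control uses different libraries on its 2 sides. The difference of these differences was called for 83 of 12345 genes (0.672%), 32 more positive with paclitaxel (0.259%) and 51 more negative (0.413%), by edgeR with all 12 libraries. The 32 were positive on paclitaxel and negative without it. Of the 51, 32 were negative on paclitaxel and positive without it, and 19 were positive in both and smaller on paclitaxel. Of the 83, 62 were still called without paclitaxel library 1, 82 with the trend removed and 83 without almonertinib library 1. Across all 12345 genes the 2 differences correlated weakly, with a Pearson r of 0.116, and genes are not independent replicates.

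Among the lists, interferon-stimulated genes had the most members with a called difference. Of 48 tested, 22 were called more negative on paclitaxel and 0 more positive (0.413% and 0.259% of all genes). Under almonertinib alone 35 of the 48 were called higher than control, with a median log2 fold change of 1.40. Of all genes, 241 were called in that contrast (1.95%) and 167 were higher (1.35%). Under paclitaxel alone 21 of the 48 were called higher than control (0.446% of all genes), with a median of 1.096. In the combination 25 of the 48 were called higher than control (1.77% of all genes), with a median of 1.026. The contrasts with control share the control libraries. The list thus already lay above control under paclitaxel alone, and combination minus paclitaxel had a median of -0.03. MX1, an interferon-induced GTPase that blocks viruses, had 142, 134 and 139.8 CPM in the combination libraries and 124, 68.7 and 71.9 CPM in the paclitaxel libraries. It had 161, 135 and 112 CPM in the almonertinib libraries and 15.5, 21.1 and 24.3 CPM in the control libraries. The level was thus high in all 3 drug groups and low in the control. The log2 fold change was 0.65 ± 0.22 on paclitaxel and 2.74 ± 0.24 without it, a difference of -2.09 ± 0.32 (edgeR adjusted p = 0.00692). Paclitaxel library 1 had the highest MX1 of its group, and without it MX1 was called higher in the combination than in paclitaxel (edgeR adjusted p = 0.0254).

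MX2, a related GTPase, had 25.8, 27.0 and 28.8 CPM in the combination libraries, 23.9, 14.7 and 14.5 CPM in the paclitaxel libraries, 24.9, 27.4 and 29.2 CPM in the almonertinib libraries and 2.41, 2.74 and 4.398 CPM in the control libraries, and its difference was -2.47 ± 0.33. IFITM1, an interferon-induced membrane protein, had 184, 200.5 and 207 CPM in the combination libraries and 169, 173 and 169 CPM in the paclitaxel libraries. TEF, a clock-controlled transcription factor, had 26.4, 25.1 and 24.0 CPM in the combination libraries and 36.5, 28.98 and 30.2 CPM in the paclitaxel libraries, and 39.7, 27.4 and 28.5 CPM in the almonertinib libraries and 12.3, 10.9 and 12.3 CPM in the control libraries. ID2, an inhibitor of basic helix-loop-helix factors, differed by -1.27 ± 0.23. In these genes each drug group lay above the control.

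All 32 genes with a more positive difference had a negative log2 fold change under almonertinib alone and a positive one on paclitaxel. SLC2A1, the glucose transporter GLUT1 gene, had 317, 329.6 and 369 CPM in the combination libraries and 199, 223 and 237 CPM in the paclitaxel libraries, and 262, 226 and 208 CPM in the almonertinib libraries and 367, 399 and 393 CPM in the control libraries. Its log2 fold change was 0.62 ± 0.15 on paclitaxel and -0.74 ± 0.15 without it, a difference of 1.36 ± 0.21 (edgeR adjusted p = 0.00718). CCN1 differed by 1.54 ± 0.24, CDCP1, a membrane substrate of SRC kinases, by 1.36 ± 0.22, NPC1 by 1.40 ± 0.23 and KLK6, a secreted protease, by 1.76 ± 0.29. For KLK6 the log2 fold change was 0.33 ± 0.21 on paclitaxel and -1.43 ± 0.20 without it. Its mean was 5.67 CPM in the combination, 4.51 CPM in paclitaxel, 5.41 CPM in almonertinib and 14.5 CPM in control, so KLK6 was low in every drug group. The difference was 1.40 for THBS1, 1.55 for HK2 and 1.34 for SCD. These 3 genes were named above for their change on paclitaxel, which is a term of the difference, so their values are a description. Under almonertinib alone, 4 of the 77 genes that rose were called higher than in control and 3 of the 9 that fell were called lower, where 1.35% and 0.599% of all genes were called.

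**Figure D5:**
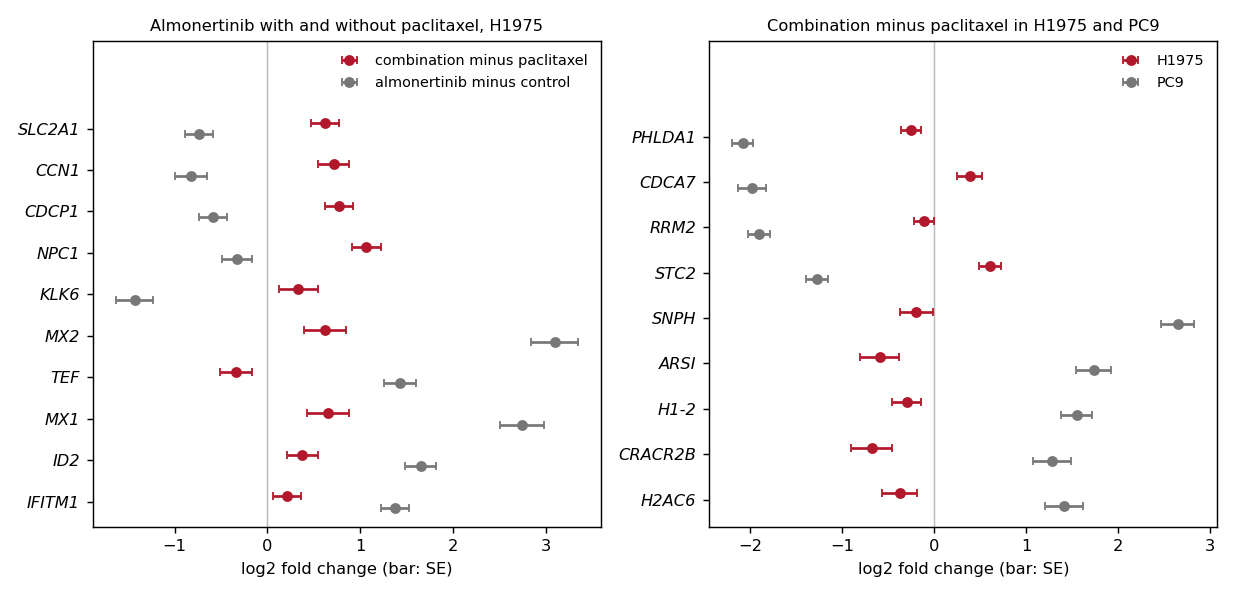
Log2 fold changes with their standard errors: left, combination minus paclitaxel (red) and almonertinib minus control (grey) in H1975 for the 10 genes named for that difference; right, combination minus paclitaxel in H1975 (red) and in PC9 (grey) for 9 genes named for the difference between lines. MX1 lies at 0.65 on paclitaxel and 2.74 without it, and PHLDA1 at -0.26 in H1975 and -2.08 in PC9.

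The same comparison in PC9 was the most like one in the series. The doses of the single drugs differed between the lines (2 nM almonertinib and 0.3 nM paclitaxel in PC9), so line and dose cannot be told apart. The log2 fold change of combination over paclitaxel differed between H1975 and PC9 for 1779 of 13380 genes (13.3%), 1163 higher in H1975 (8.69%) and 616 lower (4.6%), by edgeR with all 24 libraries. In that fit 775 genes (5.79%) were called in H1975 and 3734 (27.9%) in PC9. With RLE size factors in place of TMM factors, the difference was called for 1592 genes, 880 higher and 712 lower. Of the 1779 called with TMM factors, 1698 were still called without paclitaxel library 1 of H1975 and 1476 with the trend removed.

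ERK feedback genes and EGFR-MAPK targets were among these. Of the 37 members of that list tested, 16 were called higher in H1975 than in PC9 and 1 lower (8.69% and 4.6% of all genes). DUSP6 had a log2 fold change of -0.11 in H1975 and -2.57 ± 0.18 in PC9, where it had 5.91, 6.19 and 6.88 CPM in the combination libraries and 42.2, 38.04 and 32.2 CPM in the paclitaxel libraries. The difference of DUSP6 was 2.46 ± 0.28 (edgeR adjusted p = 3.14e-06). PHLDA1 had 16.1, 19.2 and 17.3 CPM in the PC9 combination libraries and 79.4, 73.2 and 70.4 CPM in the PC9 paclitaxel libraries, and differed by 1.83 ± 0.15. ETV5 differed by 1.79, SPRY4 by 1.00 and MYC by 1.02, all called. EGFR differed by 1.29 ± 0.24 (edgeR adjusted p = 0.00094), and ERBB3 by 0.10 ± 0.17, which was not called.

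Genes of DNA replication were also among these. Of 49 members of the G1-S and replication list, 39 were called higher in H1975 than in PC9 and 1 lower (8.69% and 4.6% of all genes). The median difference was 1.09. RRM2, the small subunit of ribonucleotide reductase, had 182, 179 and 193 CPM in the H1975 combination libraries and 210.0, 196 and 195 CPM in the H1975 paclitaxel libraries. In PC9 it had 42.5, 46.1 and 40.7 CPM in the combination libraries and 174, 158 and 153 CPM in the paclitaxel libraries, and its log2 fold change was -0.11 in H1975 and -1.91 in PC9. CDCA7, a replication-associated gene, differed by 2.36 ± 0.20 and STC2 by 1.88 ± 0.17. Lower in H1975 were the differences of SNPH, a mitochondrial docking protein of axons, at -2.84 ± 0.25, ARSI, an arylsulfatase, at -2.33 ± 0.29, the calcium sensor gene CRACR2B at -1.96 ± 0.30 and the histone genes H1-2 and H2AC6 at -1.84 ± 0.23 and -1.79 ± 0.28.

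The genes that rose or fell in H1975 were chosen on a term of this difference, so their differences are a description. NPC1 differed by 1.34 ± 0.18, with a log2 fold change of -0.27 in PC9, THBS1 by 1.86 ± 0.27 with -0.69 in PC9, DYNC1H1 by 1.34 ± 0.33 with 0.04 in PC9 and CDH1 by 0.80 ± 0.20 with 0.18 in PC9. SCD did not differ beyond its error, at 0.15 ± 0.34, with a log2 fold change of 0.84 in PC9. MYEOV differed by -0.11 ± 0.26 and had a log2 fold change of -0.90 in PC9, while ACOX2 had a log2 fold change of -2.14 in PC9.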

How the data were processed

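The values deposited by the authors are unnormalised counts of reads, in 1 table of 19702 genes with Ensembl identifiers. HISAT2 2.2.1, HTSeq and the build GRCh38 are named in the submitters' processing notes. Which HTSeq version, annotation and strand setting served for counting is not given in the sources used here, so antisense reads may have been counted in some genes. Per the labels' protocols, TRIzol served to take RNA after 24 h and a SMART-RNAseq kit to prepare the libraries. A table of gene names gave symbols for 19695 genes, and GENCODE v29 gave positions and transcripts.

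From the counts, edgeR 4.0.16 (R 4.3.3) was fitted on all 12 H1975 libraries in 4 groups with TMM factors and filterByExpr (12345 genes). Two-sided quasi-likelihood p-values were Benjamini-Hochberg adjusted over all genes tested and called under 0.05. CPM are depth-scaled counts on TMM-adjusted library sizes. The contrasts were combination minus paclitaxel, the difference of that from almonertinib minus control, and, with 24 libraries, H1975 minus PC9. Length is the longest annotated transcript. The trend was removed per library as an offset from a spline on length and GC content with 5 degrees of freedom. Alternatives were RLE factors, 2 filters, DESeq2 1.42.0, limma-voom (limma 3.58.1) with sample quality weights, the replicate number as a block, other sets of libraries and leaving out each library. The procedure was tested on simulated counts. At these depths counting error is small for abundant genes and large for genes near 1 CPM, and precision is set by 3 libraries a group.

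The groups compared, the 11 genes followed throughout and the 32 gene lists were chosen with earlier results of these data known. The naming rule took up to 12 called genes per direction with the largest change among protein-coding genes with a mean of at least 5 CPM and no overlap between the groups, called members of each list or its member with the smallest p, and up to 5 genes per direction by p in each of the 2 differences. Since no gene was called with all libraries, its first part was applied to genes called the same way in 3 fits (without paclitaxel library 1, with the trend removed, and both), which was chosen after the values were seen, and of the lists the members a result turns on are given. Some genes that the rule named are not reported here. No column of the table was left unused.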

Additional observations from a re-analysis of the deposited data

Results flagged for a closer look

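The response to almonertinib differed by a test of the difference itself between H1975 cells with and without paclitaxel for 83 genes, and the response of combination over paclitaxel differed between H1975 and PC9 for 1779 genes, both by edgeR. In the first, the difference on the log2 scale was 1.36 for SLC2A1, 1.54 for CCN1, 1.36 for CDCP1, 1.40 for NPC1 and 1.76 for KLK6. It was -2.47 for MX2, -1.77 for TEF, -2.09 for MX1, -1.27 for ID2 and -1.16 for IFITM1. In the second, the difference was 1.83 for PHLDA1, 2.36 for CDCA7, 1.79 for RRM2 and 1.88 for STC2. It was -2.84 for SNPH, -2.33 for ARSI, -1.84 for H1-2, -1.96 for CRACR2B and -1.79 for H2AC6.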

How the results depend on the processing

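The count of genes called between the combination and paclitaxel depended on the processing more than any other result. Against 0 genes in edgeR with all 12 libraries, RLE factors gave 56, no filter 54, a stricter filter 3, DESeq2 478, limma-voom with quality weights 5643, removal of the length and GC trend 194, that removal without paclitaxel library 1 1138, the 6 libraries alone 822 and all 24 libraries 775. Leaving out 1 of the 6 libraries gave 0 to 424, the highest without paclitaxel library 1. Settings chosen after seeing the data gave 600 without almonertinib library 1, 2359 without that library and paclitaxel library 1, and 5086 with the 6 libraries less paclitaxel library 1. Almonertinib library 1 is outside the comparison and enters through the shared estimate of spread: the biological coefficient of variation was 0.191 with it and 0.143 without it. In the lists, 957 entries were tested. Members called were 0 in the fit of all libraries (0% of all genes), 59 without paclitaxel library 1 (3.41%) and 32 with the trend removed (1.57%). They were 145 with both changes (9.16%) and 110 with the 6 libraries (6.8%). Without almonertinib library 1 they were 78 (4.82%), and without that library and paclitaxel library 1 275 (19%). The cause of these moves was not tested beyond this.

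The difference between almonertinib's effect with and without paclitaxel was called for 249 genes by DESeq2, 3775 by limma-voom, 377 with the trend removed and 550 with the trend and paclitaxel library 1 removed, against 83, and for 29 to 596 genes when 1 library was left out, the highest without almonertinib library 1 and the lowest without paclitaxel library 3. The difference between lines was called for 6766 genes by limma-voom and 3125 with the trend and paclitaxel library 1 removed, against 1779, and for 1126 to 2552 when 1 library was left out, the lowest without H1975 paclitaxel library 3. The difference of the group means of the length correlation stayed between 0.281 and 0.662 over all settings run.

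Of the named genes, 14 values changed sign. DUSP6 was 0.061 by limma-voom, 0.13 without paclitaxel library 1, 0.13 without that and almonertinib library 1 and 0.13 with the 6 libraries less paclitaxel library 1. SPRY4 was 0.23 to 0.24 in these 4 settings, and 0.059 without combination library 2. With 1 library left out DUSP6 ran from -0.26 to 0.13 and SPRY4 from -0.20 to 0.23. With the trend removed ETV5 was -0.0069 and CCND1 -0.16, and with the trend and paclitaxel library 1 removed CCND1 was -0.21, H1-2 0.0033 and H2AC6 0.11. These values were not called in the fit of all libraries, where no gene was.

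Whether the replicate numbers pair the libraries is not in the labels, and correlations of so few libraries cannot settle it. Deviations of same-numbered combination and paclitaxel libraries correlated at -0.092, 0.044 and -0.124. Same-numbered almonertinib and control libraries correlated at 0.332, -0.375 and 0.505, and differently numbered ones at -0.660 to 0.565. With the replicate number as a block, 0 genes were called between the combination and paclitaxel, 57 in the difference with and without paclitaxel and 1827 between lines. Depth limits statements on genes near 1 CPM, and 3 libraries a group limit the rest.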
